A study of Mus musculus with 35 samples.

Results

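The 10 genes described here encode matricellular proteins: the tenascin Tnc, osteopontin (Spp1), periostin (Postn), Cthrc1, the thrombospondins Thbs1, Thbs2 and Thbs4, Sparc, and the CCN proteins Ccn1 and Ccn2. They were listed by name, and all 10 were found among the 27012 genes of the deposited table of mouse heart RNA. Every one of them passed the filter on low values, a mean normalized count of at least 10 over all libraries.

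The tissue was the apex of the heart of C57Bl/6/FVB mice operated on at 6 weeks of age and killed on day 3. Transaortic constriction (TAC) narrows the aorta with a suture and raises the pressure against which the left ventricle pumps, and sham animals had the operation without it. IRS1KO mice carried floxed Irs1 with alphaMHC-Cre, which is active in cardiomyocytes, IRS2KO mice carried floxed Irs2 with the same Cre, and WT mice carried floxed Irs2 without Cre. There were 6 libraries in each of the 6 groups, apart from 5 in WT TAC. Cre alone and floxed Irs1 without Cre were not among the groups, so effects of Cre or of the flanking alleles cannot be told apart from those of the deletions. Nothing in the labels ties each library to its own mouse, and the p-values therefore reflect library-to-library spread.

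Matricellular proteins sit in the extracellular matrix without forming its load-bearing scaffold, and act on cells through integrins, CD44, CD36, CD47, syndecans and LRP1. In the adult heart most are scarce, and they appear in injury and pressure overload, when fibroblasts, macrophages and stressed cardiomyocytes secrete them during matrix remodelling. Several of them bind or activate TGF-beta, and Ccn1 and Ccn2 are textbook targets of the mechanosensitive YAP/TEAD and SRF pathways.

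Libraries held 11707111 to 14609467 reads in genes. Irs1 averaged 25.9 ± 15.1 normalized counts in IRS1KO sham hearts and 233 ± 52.5 in WT sham hearts (SD, n = 6 each), and it passed the limma test with an adjusted p of 0.000431. Irs2 averaged 123 ± 14.4 in IRS2KO sham hearts and 217 ± 174 in WT sham hearts, a difference that did not pass (limma adjusted p = 1); the 6 WT sham libraries held 93.0 to 564. After TAC Irs2 averaged 121 ± 41.2 in IRS2KO and 239 ± 68.6 in WT hearts, with 5 of 6 IRS2KO libraries below every WT library (limma unadjusted p = 0.00954, adjusted p = 0.695). Irs2 was higher in IRS1KO than in IRS2KO hearts, 2.57-fold in sham and 3.28-fold after TAC (limma adjusted p = 0.0125 and 0.00948). The first principal component of the genes that passed the filter on low values held 69.7% of the variance and separated TAC from sham. IRS2KO TAC replicate 4, WT TAC replicate 2 and IRS2KO TAC replicate 1 lay nearest to sham on it, at scores of -0.419, -3.02 and 20.8, and IRS1KO TAC replicate 5 followed at 27.2. The other TAC libraries scored 44.2 to 84.8 and the sham libraries -57.0 to -41.2.

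Promoters are shown because the members changed together after TAC and TEAD, AP-1 and SRF are factors known to act in load-responsive transcription. RefSeq windows on GRCm38.p6 were held for 7 of the 10 genes (not for Cthrc1, Thbs1 and Ccn2). The Sparc window lies 3103 bases from the start of the gene in GENCODE, and the other 6 within 27 bases of it. The 250 bases before the listed start were searched on both strands for CATTCC (the TEAD or MCAT element), TGANTCA (AP-1), the CArG box of SRF, and TATAAA (the TATA box). The 4 windows below are Ccn1 and Thbs4, which held CATTCC, and Postn and Tnc, which were among the members that changed most; capitals mark CATTCC and TATAAA, and all are written 5′ to 3′ on the gene's strand.
Ccn1 (chr3:145649986-145650235, minus strand): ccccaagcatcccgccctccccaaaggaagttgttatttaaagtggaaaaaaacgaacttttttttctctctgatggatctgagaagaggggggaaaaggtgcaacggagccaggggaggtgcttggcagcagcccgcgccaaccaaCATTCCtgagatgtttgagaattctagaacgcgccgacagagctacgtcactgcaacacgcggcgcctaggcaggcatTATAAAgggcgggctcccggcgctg
Thbs4 (chr13:92794819-92795068, minus strand): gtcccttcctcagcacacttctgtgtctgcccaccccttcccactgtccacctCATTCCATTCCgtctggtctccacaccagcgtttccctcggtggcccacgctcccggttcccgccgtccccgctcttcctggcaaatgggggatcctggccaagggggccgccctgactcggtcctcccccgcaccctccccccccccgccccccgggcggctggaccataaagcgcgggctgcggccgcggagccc
Postn (chr3:54360857-54361106, plus strand): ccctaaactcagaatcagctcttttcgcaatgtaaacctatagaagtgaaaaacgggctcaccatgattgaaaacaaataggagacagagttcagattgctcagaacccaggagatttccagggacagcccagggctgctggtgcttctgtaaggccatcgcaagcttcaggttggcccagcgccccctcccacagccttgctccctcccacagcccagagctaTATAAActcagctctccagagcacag
Tnc (chr4:64047016-64047265, minus strand): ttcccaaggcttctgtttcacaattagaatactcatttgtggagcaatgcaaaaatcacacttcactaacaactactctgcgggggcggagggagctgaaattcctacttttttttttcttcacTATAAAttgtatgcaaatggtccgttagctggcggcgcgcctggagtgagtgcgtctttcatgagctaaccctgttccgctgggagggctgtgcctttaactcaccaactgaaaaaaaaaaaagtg

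CATTCC stood in the windows of Ccn1, at -103 to -98, and of Thbs4, at -197 to -192 and -192 to -187, where the copies share a base. That was 2 of 7 members, and 12.6% of all 32851 windows of this length held it. TATAAA stood on either strand in 5 of 7 (Tnc, Spp1, Postn, Thbs2 and Ccn1), against 12.4% of all windows. It lay at -26 to -21 in Postn and at -25 to -20 in Ccn1. Farther from the start, it lay at -126 to -121 in Tnc and -211 to -206 in Spp1. In Thbs2 it was on the opposite strand, read as TTTATA, at -126 to -121. The 7 include the Sparc window, which lies 3103 bases from the GENCODE gene start. TGANTCA and the CArG box were in 0 of the 7, against 6.75% and 1.47% of all windows. These are descriptions of letters in short windows and say nothing of binding.

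After TAC 9 of the 10 matricellular genes rose in every genotype, and Thbs2 passed the test in IRS1KO hearts alone. Of the 10 members, 10 rose in IRS1KO hearts, 9 in IRS2KO hearts and 9 in WT hearts, and none fell (limma with Benjamini-Hochberg adjusted p under 0.05). The background is wide: 64.1%, 62.4% and 54.9% of all 13695 tested genes changed in these comparisons, with 32.4%, 31.3% and 28.3% higher and 31.7%, 31.1% and 26.6% lower. The median log2 fold change of the members was 4.51 in IRS1KO hearts, 4.31 in IRS2KO hearts and 3.94 in WT hearts, beside -0.01 over all tested genes in each genotype. With the same total per library in place of the deposited scaling, the median of all genes moved to 0.30, 0.33 and 0.24, and the share of called genes that were higher to 77.0%, 79.9% and 79.9%, in place of 50.6%, 50.2% and 51.6%. Under that scaling Ccn1 had log2 fold changes of 1.49, 1.53 and 1.42 in IRS1KO, IRS2KO and WT hearts, Sparc 1.83, 1.86 and 1.86, and Thbs2 0.97, 0.72 and 0.31. In bulk tissue fewer cells of a type and less RNA per cell cannot be told apart, so these are levels per heart sample.

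**Figure D1:**
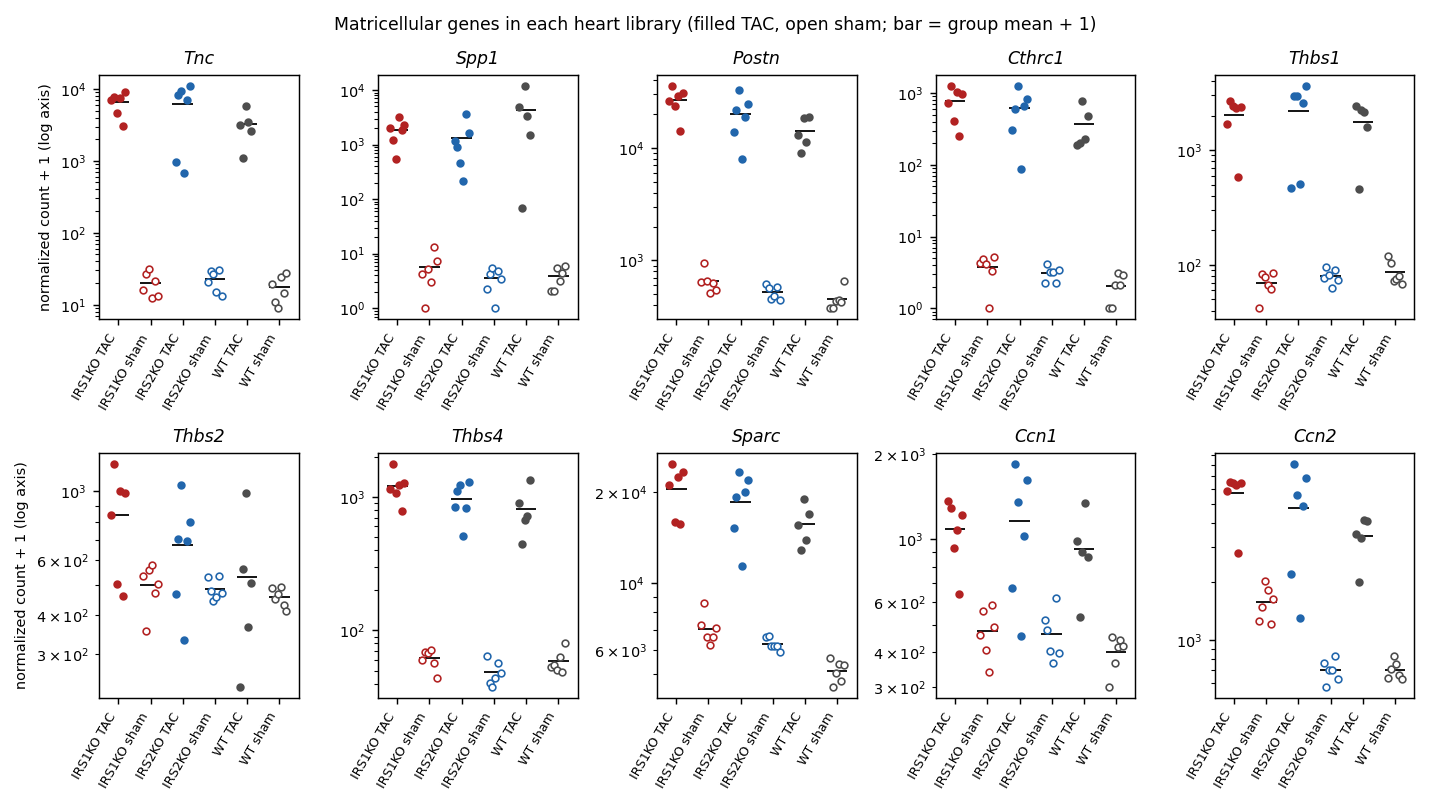
Normalized count plus 1 of each member in every library (log axis), by genotype and operation, with a bar at the group mean plus 1. TAC (filled) and sham (open) libraries overlap for Ccn1 in IRS2KO hearts and for Thbs2 in every genotype. The share of all genes without overlap was not computed.

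Tnc, Spp1 and Cthrc1 had the lowest sham levels per kb of exon in every genotype. Tnc, a hexameric tenascin of embryonic and injured tissue, had a lowest, median and highest normalized count of 3005, 7235 and 9096 in IRS1KO TAC hearts, against 11.2, 17.7 and 30.0 in IRS1KO sham hearts. It had 685, 7601 and 11088 in IRS2KO TAC hearts, against 12.04, 22.8 and 29.5 in IRS2KO sham hearts. In the WT TAC libraries (replicates 1, 2, 3, 5 and 6) it had 3161, 1093, 5798, 3461 and 2564, against 7.94 to 26.2 in WT sham hearts. No TAC library came near a sham library, although IRS2KO TAC replicates 1 and 4 (964 and 685) stood far under the other 4. The mean was 338-fold, 288-fold and 194-fold that of sham in IRS1KO, IRS2KO and WT hearts, with limma log2 fold changes of 8.32 (SE 0.51), 7.53 (0.51) and 7.44 (0.54) and a highest adjusted p of 2.44e-12.

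Spp1, an acidic glycoprotein made by activated macrophages and other injured-tissue cells, was at the edge of detection in sham hearts, at 0 to 12.4 in IRS1KO, 0 to 4.49 in IRS2KO and 1.10 to 4.85 in WT. After TAC it had 542, 1928 and 3265 (lowest, median, highest) in IRS1KO hearts and 217, 1042 and 3561 in IRS2KO hearts. The 5 WT TAC libraries held 4915, 67.2, 12025, 3276 and 1504. Spp1 was the member that varied most between IRS2KO TAC and between WT TAC libraries, with coefficients of variation of 91.4% and 107%; in IRS1KO TAC hearts it had 50.1%, as did Cthrc1. Its log2 fold changes were 8.56 (SE 0.79), 8.22 (0.79) and 9.01 (0.82) in IRS1KO, IRS2KO and WT hearts (limma, highest adjusted p 5.64e-10). Without WT TAC replicate 2 the WT value was 10.2. A ratio of means is given for IRS1KO alone (398-fold), because the other sham means were under 3.

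Cthrc1, a secreted protein of activated fibroblasts that limits collagen deposition in arteries, had sham means of 2.77 ± 1.51 in IRS1KO, 2.09 ± 0.739 in IRS2KO and 1.05 ± 0.908 in WT, with 16, 11 and 6 reads per group. After TAC it had 252, 847 and 1271 (lowest, median, highest) in IRS1KO hearts and 86.5, 630.2 and 1265 in IRS2KO hearts, and 189, 198, 779, 229.9 and 472 in WT hearts. Every TAC library was above every sham library. The log2 fold changes were 7.66 (SE 0.49), 7.30 (0.49) and 7.42 (0.52) in IRS1KO, IRS2KO and WT hearts (limma, highest adjusted p 1.11e-12), and no ratio is given because all sham means were under 3.

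Postn, which cross-links collagen and marks activated cardiac fibroblasts, had the highest counts of the strong responders. The lowest, median and highest values were 13981, 27435 and 35544 in IRS1KO TAC hearts against 509, 634 and 956 in IRS1KO sham hearts. They were 7964, 20163 and 32299 in IRS2KO TAC hearts against 442, 528 and 619.9 in IRS2KO sham hearts. WT TAC libraries held 13081, 9035, 18451, 11176 and 18576, against 376 to 659 in WT sham hearts. The groups did not overlap in any genotype. Means were 40.2-fold, 37.8-fold and 31.0-fold those of sham in IRS1KO, IRS2KO and WT hearts, with log2 fold changes of 5.30 (SE 0.24), 5.12 (0.24) and 4.92 (0.25) and a highest limma adjusted p of 1.15e-15.

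The thrombospondins split. Thbs1, a trimer that activates latent TGF-beta and binds CD36 and CD47, averaged 2018 ± 773, 2182 ± 1359.6 and 1764 ± 796 in IRS1KO, IRS2KO and WT TAC hearts, against 68.5 ± 16.4, 79.6 ± 12.02 and 86.1 ± 20.6 in their sham hearts. Its means were 29.5-fold, 27.4-fold and 20.5-fold those of sham. Within each TAC group Thbs1 had libraries that stood low: 587 in IRS1KO replicate 5, 468 and 504 in IRS2KO replicates 1 and 4, and 454 in WT replicate 2, beside 1575 to 3643 in the remaining 13. These are the libraries nearest to sham on the first component, and all 4 were still above the highest sham library, at 119.

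Thbs4, a pentamer that in mouse heart binds the ER stress sensor ATF6 inside the cell as well as acting outside it, had a lowest, median and highest count of 779, 1188 and 1761 in IRS1KO TAC hearts, against 43.4, 63.3 and 70.3 in IRS1KO sham hearts. IRS2KO TAC hearts had 508, 970.4 and 1291, against 37.1, 45.03 and 64.0 in IRS2KO sham hearts. WT TAC libraries had 905, 442, 666, 722 and 1326, against 48.1 to 79.5 in WT sham hearts. No TAC and sham libraries overlapped, and the spread within TAC groups was narrower than for Thbs1. The means were 19.9-fold, 20.2-fold and 14.1-fold those of sham in IRS1KO, IRS2KO and WT hearts (limma, highest adjusted p 9.77e-14).

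Thbs2, the trimer closest to Thbs1 in structure but without its TGF-beta-activating sequence, was the exception. It had 459.9, 912 and 1224 (lowest, median, highest) in IRS1KO TAC hearts against 355, 518 and 581 in IRS1KO sham hearts, and 332, 696 and 1051 in IRS2KO TAC hearts against 445, 474 and 534 in IRS2KO sham hearts. WT TAC libraries held 235, 564, 986, 365 and 506, against 413 to 493 in WT sham hearts: 3 were above and 2 below every WT sham library. The log2 fold change passed in IRS1KO hearts at 0.67 (SE 0.25, limma adjusted p = 0.021). It did not pass in IRS2KO hearts, at 0.38 (95% interval -0.13 to 0.89, adjusted p = 0.190), or in WT hearts, at 0.06 (-0.48 to 0.59, adjusted p = 0.865). The difference of response between IRS1KO and WT was 0.61 (-0.13 to 1.35) and did not pass (adjusted p = 0.636).

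The Thbs2 calls changed with single libraries. The IRS1KO rise was no longer called without IRS1KO TAC replicate 2 (adjusted p = 0.069), IRS1KO TAC replicate 4 (0.0514) or IRS1KO sham replicate 2 (0.0571). In IRS2KO hearts Thbs2 was called higher by limma with the same total per library (adjusted p = 0.0269), with library weights (0.0124), without IRS2KO TAC replicate 4 (0.0434) and without the 3 TAC libraries nearest to sham (0.016). The IRS2KO TAC libraries left out there, replicates 4 and 1, held the lowest Thbs2 values of the group, so leaving them out raises its mean by selection.

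Sparc, a collagen-binding calcium protein made by fibroblasts and endothelium, had the highest mean per kb of exon of the members in all 6 groups. It averaged 5426 ± 1016, 4898 ± 1182 and 4132 ± 649 normalized counts per kb in IRS1KO, IRS2KO and WT TAC hearts, and 1866 ± 216, 1660.1 ± 78.5 and 1356 ± 113 in their sham hearts. In normalized counts not divided by length, it had a range of 15666 to 24819 in IRS1KO TAC hearts against 6245 to 8567 in IRS1KO sham hearts, and of 11391 to 23419.7 in IRS2KO TAC hearts against 5916 to 6667 in IRS2KO sham hearts. WT TAC libraries had 15533, 12861, 19064, 13886 and 16925, against 4546 to 5669 in WT sham hearts. Its rise was modest and even: means were 2.91-fold, 2.95-fold and 3.05-fold those of sham, with log2 fold changes of 1.52 (SE 0.13), 1.52 (0.13) and 1.60 (0.14) and a highest limma adjusted p of 1.60e-10.

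The CCN genes, rapid-response secreted proteins that bind integrins and heparan sulphate, were already expressed in sham hearts. Ccn1 averaged 1085 ± 266, 1162 ± 541 and 925 ± 293 in IRS1KO, IRS2KO and WT TAC hearts, against 473 ± 93.1, 463 ± 94.8 and 398 ± 56.5 in their sham hearts. It rose 2.29-fold, 2.51-fold and 2.32-fold in the 3 genotypes (limma, highest adjusted p 0.000371), and IRS2KO TAC replicate 4, at 456, lay within the IRS2KO sham range of 365 to 618.

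Ccn2, the profibrotic CCN protein induced by TGF-beta, had a lowest, median and highest count of 2818, 6359 and 6532 in IRS1KO TAC hearts, against 1204, 1553 and 2013 in IRS1KO sham hearts. IRS2KO TAC hearts had 1303, 5232 and 8051, against 575, 702 and 825 in IRS2KO sham hearts. WT TAC libraries had 3509, 1992, 3356, 4125 and 4116, against 629 to 824 in WT sham hearts. The groups did not overlap within a genotype, and the folds were 3.66, 6.87 and 4.88 in IRS1KO, IRS2KO and WT hearts (log2 1.84, SE 0.28; 2.53, SE 0.28; 2.25, SE 0.30; limma, highest adjusted p 1.69e-06). The lowest IRS2KO TAC and WT TAC values, 1303 and 1992, were below the highest IRS1KO sham value of 2013.

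**Figure D2:**
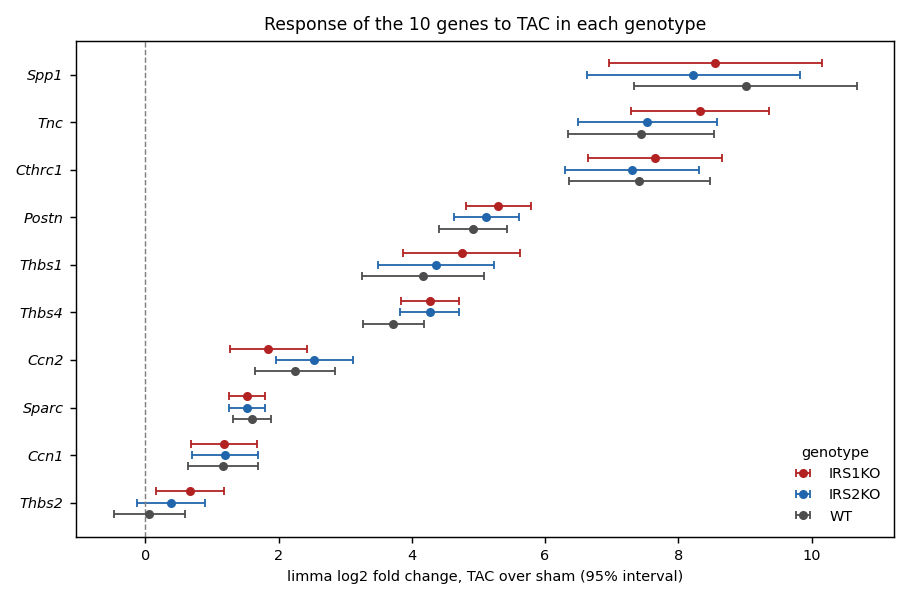
limma log2 fold change of TAC over sham for each member (points) with its 95% interval (bars) in IRS1KO, IRS2KO and WT hearts. Spp1, Tnc and Cthrc1 lie between 7.30 and 9.01, Ccn1, Sparc and Ccn2 between 1.16 and 2.53, and the Thbs2 intervals in IRS2KO and WT hearts cross 0.

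Per kb of exon the order of the members changed with TAC. In WT sham hearts Sparc was followed by Ccn2 (245 ± 26.3), Ccn1 (197 ± 28.0), Thbs2 (65.3 ± 4.52) and Postn (52.2 ± 12.01), and Cthrc1 was last at 0.659 ± 0.570 (normalized counts per kb, SD, n = 6). In WT TAC hearts Sparc was followed by Spp1 (2644 ± 2827), Postn (1616 ± 495) and Ccn2 (1195 ± 304), and Thbs2 was last at 75.9 ± 40.6 (n = 5). In that order Sparc and Spp1, Spp1 and Postn, and Postn and Ccn2 each differed by less than the larger of their SDs. Postn followed Sparc in IRS1KO TAC hearts (3032 ± 843) and in IRS2KO TAC hearts (2282 ± 973), and Thbs2 was last in all 3 TAC groups.

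Markers of other cell types moved with the operation in the same libraries. Over all genes, 32.4%, 31.3% and 28.3% were called higher and 31.7%, 31.1% and 26.6% lower in IRS1KO, IRS2KO and WT hearts. Of 8 fibroblast markers 4, 4 and 5 were called higher and 2, 2 and 1 lower in IRS1KO, IRS2KO and WT hearts. Their summed normalized counts ranged over 41167 to 80383, 36738 to 86217 and 44533 to 72734 in IRS1KO, IRS2KO and WT TAC hearts, and over 22501 to 28830, 27598 to 32876 and 25965 to 30008 in their sham hearts. The collagen genes Col1a1 and Col3a1 rose in all 3, while Gsn fell in all 3. Col1a1 and Col3a1 made up most of the summed counts after TAC. In IRS1KO hearts they averaged 24122 and 28800 after TAC, against 1267 and 2992 in sham. Gsn averaged 3630 and 13150.5 there. The rise of the sums therefore follows the collagen genes, and whether fibroblast number changed was not tested. Of 12 macrophage and monocyte markers 11 were tested, of which 10, 10 and 11 rose, with sums of 9037 to 20785, 7211 to 21455 and 9142 to 23983 after TAC against 3572 to 4823, 3902 to 5084 and 3600 to 4503 in sham. Of 8 cardiomyocyte markers 6, 7 and 7 fell, and their sums were 297821 to 600912, 270413 to 729575 and 389557 to 732335 after TAC against 761495 to 856066, 787853 to 850466 and 767939 to 886566 in sham. No marker of these lists had a mean under 1. Of 6 endothelial markers 6, 6 and 5 fell, of 5 smooth muscle markers 4 fell and 1 rose in each genotype, and all 4 markers of dividing cells rose. Their part in the members' changes was not tested.

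In sham hearts the genotypes differed in 2 members, both higher with the cardiomyocyte Irs1 deletion. Ccn2 averaged 1564 ± 315 in IRS1KO sham hearts and 700.5 ± 75.3 in WT sham hearts (SD, n = 6 each), 2.23-fold, with a log2 fold change of 1.14 (SE 0.28, limma adjusted p = 0.0124). Each of the 6 IRS1KO sham libraries was above every WT sham library. In IRS2KO sham hearts Ccn2 averaged 699 ± 88.3 and overlapped WT, with a log2 fold change of -0.01 (95% interval -0.58 to 0.57). The direct comparison of IRS1KO with IRS2KO sham hearts gave 1.15 (SE 0.28, limma adjusted p = 0.00797), again with no overlap. Ccn2 was the 1 member of 10 called there, where 8.3% of all genes were called, 3.67% higher and 4.64% lower.

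Sparc averaged 7069.7 ± 816 in IRS1KO sham hearts, 6288 ± 297 in IRS2KO sham hearts and 5137 ± 429 in WT sham hearts. IRS1KO and WT did not overlap, and the log2 fold change was 0.46 (SE 0.13, limma adjusted p = 0.0408). IRS2KO and WT sham libraries did not overlap either (5916 to 6667 against 4546 to 5669), at 0.29 (95% interval 0.02 to 0.57, adjusted p = 1). The IRS1KO call is close to the threshold: without 1 library at a time it was lost for 10 of the 12, with adjusted p of 0.0536 to 0.123, and it was lost with the same total per library (0.0754). These 2 calls, Ccn2 and Sparc, stand beside 4.65% of all genes called, 2% higher and 2.65% lower, between IRS1KO and WT sham hearts. With the same total per library 63.3% of the called genes were higher in IRS1KO than in WT sham hearts, in place of 43.0%, and 71.2% in IRS1KO than in IRS2KO sham hearts, in place of 44.2%.

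The other 8 members did not pass between IRS1KO and WT sham hearts, with log2 fold changes of -0.33 (Thbs1) to 0.85 (Cthrc1, 95% interval -0.16 to 1.86). Postn was 0.53 (0.04 to 1.01, limma adjusted p = 0.257), and it was called with library weights (0.51, adjusted p = 0.0268). No member passed between IRS2KO and WT sham hearts, where limma called 0% of all genes, edgeR 0 and DESeq2 2; 1 member and 534 genes had an unadjusted p under 0.05. In IRS1KO against WT sham hearts, 0 of 8 fibroblast markers were called higher and 1 lower (Pdgfra), and 0 of the cardiomyocyte, macrophage or smooth muscle markers were called. Over all genes 2% were called higher there and 2.65% lower. Fibroblast sums were 22501 to 28830 in IRS1KO sham and 25965 to 30008 in WT sham hearts.

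**Figure D3:**
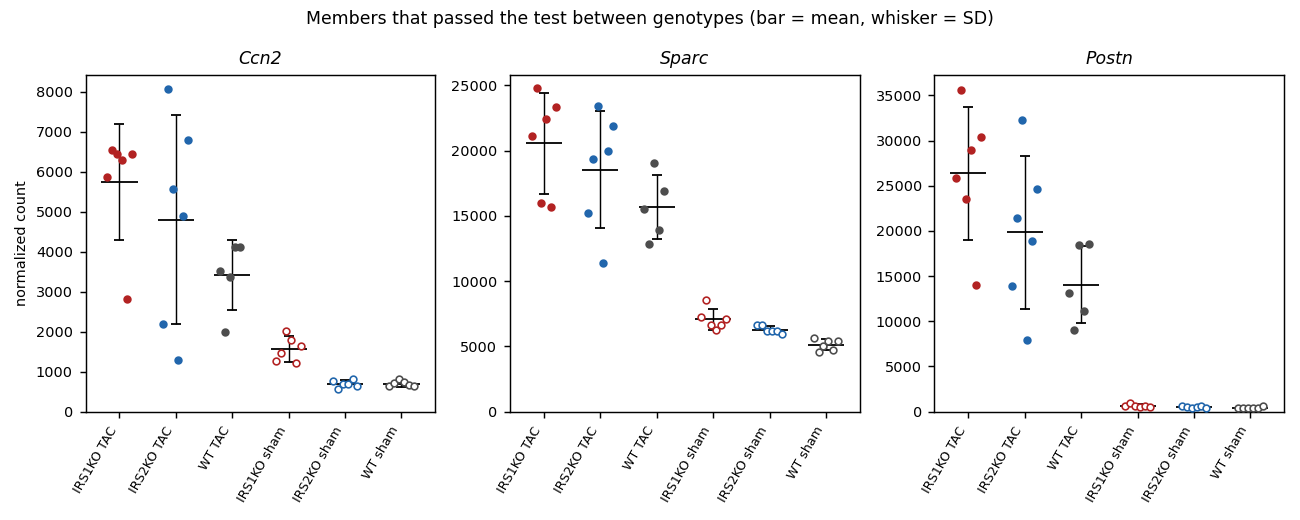
Normalized counts of Ccn2, Sparc and Postn in each library (points), with group means (bars) and SD (whiskers); n = 6, and 5 for WT TAC. Ccn2 in the 6 IRS1KO sham libraries (1204 to 2013) lies above all IRS2KO and WT sham libraries, while the TAC groups overlap.

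After TAC the genotypes overlapped in every member. The share of all genes whose genotypes overlapped was not computed, in sham hearts or after TAC. Postn was the member called between IRS1KO and WT TAC hearts, averaging 26382 ± 7340.0 and 14064 ± 4307, 1.88-fold, with a log2 fold change of 0.91 (SE 0.25, limma adjusted p = 0.0296). Of the 6 IRS1KO TAC libraries 5 were above every WT TAC library, and IRS1KO replicate 5 (13981) was not. This was 1 of 10 members where 4.7% of all genes were called, 2.02% higher and 2.68% lower. With the same total per library the median of all genes moved to 0.14 and the higher share of called genes to 69.9%, in place of 42.9%, and Postn was 1.04 (limma adjusted p = 0.0303). The call was lost without WT TAC replicate 1, 2 or 5 or IRS1KO TAC replicate 2, 4 or 6, with adjusted p of 0.0597 to 0.127. It was also lost with no filter (0.0578) and with only these groups fitted (0.115).

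Further members pointed the same way without passing. Between IRS1KO and WT TAC hearts 9 of 10 log2 fold changes were above 0, as were 50.6% of all genes, and 7 members and 2827 of the 13695 genes had an unadjusted p under 0.05. The members varied together among the TAC libraries (median r 0.766), so these are not counts of independent results. Tnc was 1.11 (95% interval 0.02 to 2.20, limma adjusted p = 0.232), Cthrc1 1.09 (0.04 to 2.15, adjusted p = 0.224) and Ccn2 0.74 (0.13 to 1.34, adjusted p = 0.148). Thbs2 was 0.72 (0.19 to 1.26), Thbs4 0.63 (0.17 to 1.09) and Sparc 0.38 (0.10 to 0.67), with limma adjusted p of 0.108, 0.103 and 0.110. Spp1 was -0.16 (-1.84 to 1.51), with means of 1859.6 ± 931 in IRS1KO and 4357 ± 4659 in WT TAC hearts, and -1.35 without WT TAC replicate 2. Library weights raised the called members to 6 and leaving out IRS1KO TAC replicate 5 raised them to 5. Without WT TAC replicate 3 there were 3, and without WT TAC replicate 6 or IRS2KO TAC replicate 4 there were 2.

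No member passed between IRS2KO and WT TAC hearts, where limma called 0% of all genes, and edgeR and DESeq2 called 0 genes; 0 members and 931 genes had an unadjusted p under 0.05. The log2 fold changes ran from -0.99 (Spp1, 95% interval -2.66 to 0.69) to 0.58 (Cthrc1, -0.47 to 1.63). Between IRS1KO and IRS2KO TAC hearts 0 members passed, against 2.36% of all genes (1.08% higher, 1.28% lower), and 0 members and 1686 genes had an unadjusted p under 0.05. With the same total per library 62.2% of the called genes there were higher, in place of 45.8%. Ccn2 there was 0.46 (-0.12 to 1.03).

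The size of the TAC response itself was not shown to differ between genotypes for any member. In the tests of the response differences 0 members passed for IRS1KO minus WT, IRS2KO minus WT and IRS1KO minus IRS2KO, against 0.11% (0.0365% higher, 0.073% lower), 0% and 0.409% (0.263% higher, 0.146% lower) of all genes. At an unadjusted p under 0.05 there were 0 members in each, and 1216, 713 and 1566 genes; for IRS2KO minus WT edgeR and DESeq2 called 0 genes. With the same total per library 57.1% of called genes had a higher response for IRS1KO minus WT, in place of 33.3%, and 36.0% for IRS1KO minus IRS2KO, in place of 64.3%. The intervals leave room for sizeable differences: Tnc, IRS1KO minus WT, was 0.88 (95% interval -0.63 to 2.39), Postn 0.38 (-0.33 to 1.09) and Sparc -0.07 (-0.47 to 0.32). For Ccn2, IRS1KO minus IRS2KO was -0.69 (-1.51 to 0.12, limma adjusted p = 0.554). That difference passed with library weights, at -1.05 (adjusted p = 0.0412), and without the 3 TAC libraries nearest to sham, at -1.32 (adjusted p = 0.00338). Leaving out those libraries also called Ccn2 (0.72, limma adjusted p = 0.0401) and Tnc (1.30, adjusted p = 0.0495) between IRS2KO and WT TAC hearts. The libraries left out were IRS2KO TAC replicates 1 and 4 and WT TAC replicate 2, picked for lying nearest to sham. None was IRS1KO, and they held the lowest Ccn2 and Tnc values of their groups. Leaving them out raises those means by selection, so calls made without them cannot decide whether the genotypes differ.

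Among hearts of the same genotype after TAC, the members varied together. IRS2KO TAC replicate 4 was the lowest of its group for 9 of the 10 members, IRS1KO TAC replicate 5 for 9 and WT TAC replicate 2 for 8. Over the 17 TAC libraries, with each group's mean removed from log2(value + 1), Pearson's r was above 0 for all 45 pairs, with a median of 0.766. In a permutation test within groups, adjusted over the 45 pairs, 35 pairs passed by r and 29 by Spearman's rho. By rho 15 passed without IRS2KO TAC replicate 4 and 16 without IRS2KO TAC replicate 1. All points share library depth and scaling, and the TAC libraries were spread along the first principal component. The share of pairs that pass among all genes was not computed, so the count is not shown to be particular to the members. Without the 3 TAC libraries nearest to sham, 40 of 45 were above 0, the median was 0.518, and 11 pairs passed by r and 8 by rho, against 35 and 29 with them.

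The 3 highest correlations were those among Cthrc1, Sparc and Postn. Cthrc1 and Sparc had r = 0.966 and rho = 0.956 (n = 17, permutation adjusted p = 0.00015 for r and 0.000225 for rho), r = 0.935 without the 2 libraries farthest from the median, and 0.932 without the 3 nearest to sham. Postn and Cthrc1 had r = 0.955 and rho = 0.924 (permutation adjusted p = 0.00015 and 0.00045), 0.906 without the 2 farthest and 0.915 without the 3. Thbs2, whose mean hardly moved with TAC in WT hearts, followed Cthrc1 with r = 0.887 and rho = 0.907 (permutation adjusted p = 0.00027 and 0.00045), 0.871 without the 2 farthest and 0.960 without the 3. Ccn1 and Ccn2 had r = 0.940 and rho = 0.801 (permutation adjusted p = 0.000225 and 0.00328), 0.893 without the 2 farthest and 0.808 without the 3, where it still passed at 0.0285. The smallest p that 100000 permutations can give is 1e-05, before adjustment.

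Spp1 had the lowest median correlation of the members. Its r with the other members ran from 0.159 (Thbs2) to 0.536 (Tnc), with a median of 0.415, and 2 of its 9 pairs passed by r, with Tnc (permutation adjusted p = 0.0293) and Sparc (r = 0.497, adjusted p = 0.0335), and 0 by rho. With Postn it had r = 0.393 and rho = 0.169 (n = 17, permutation adjusted p = 0.124 and 0.583), and r = -0.0579 without the 2 farthest libraries.

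**Figure D4:**
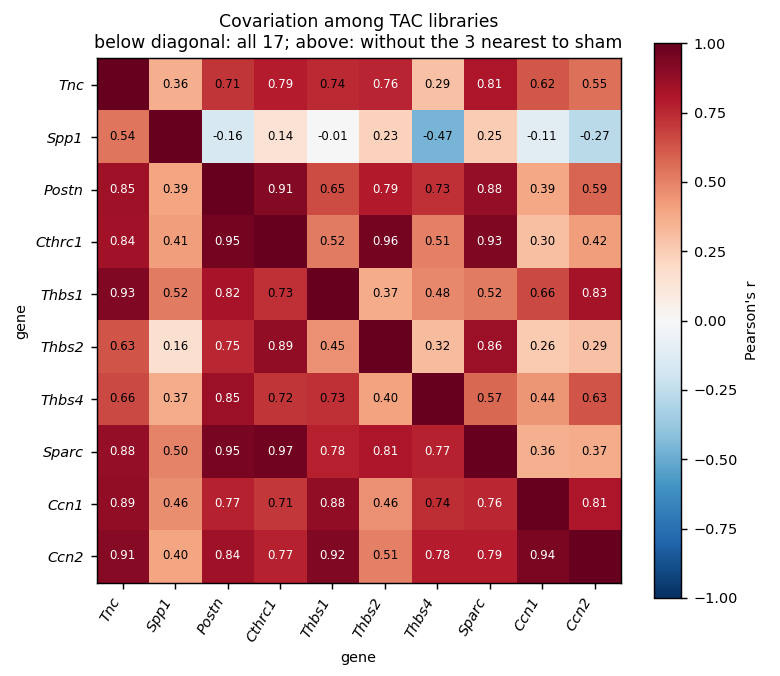
Pearson's r between members across TAC libraries after removing group means, for all 17 libraries (below the diagonal) and without the 3 nearest to sham (above it). Below the diagonal r runs from 0.16 to 0.97. Above it the pairs of Spp1, in its row and column, fall to between -0.47 and 0.36, while Cthrc1 with Thbs2 reaches 0.96.

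**Figure D5:**
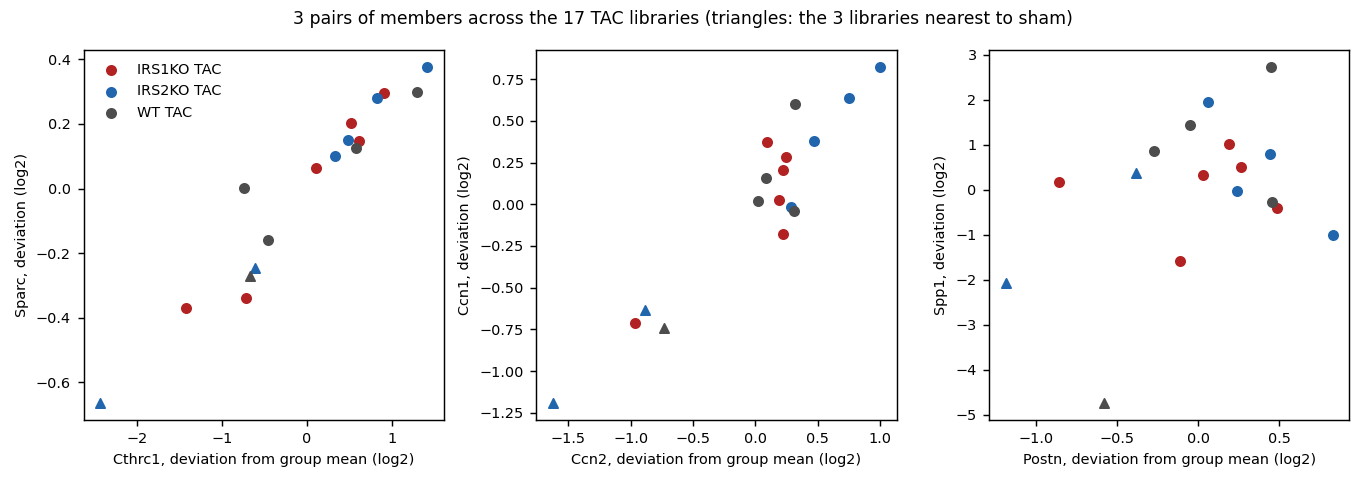
Deviation from the group mean of log2(value + 1) for 3 pairs of members in each of the 17 TAC libraries, with triangles for the 3 nearest to sham. Cthrc1 and Sparc follow each other along the whole range (r = 0.966), Ccn1 and Ccn2 less tightly without the 3 (0.940, and 0.808 without them), and Postn and Spp1 do not line up (0.393).

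Among 9136 genes with a mean of at least 100, those most like each member over the same 17 libraries, up to 3 for each, are given with their r as a description. For Sparc they were Col1a2 (0.986), Col5a1 (0.980) and Col3a1 (0.978), and for Cthrc1 Col1a2 (0.979), Col1a1 (0.969) and Sparc (0.966), all fibrillar collagen genes apart from Sparc itself. For Postn they were Fstl1 (0.990, and 0.983 without the 3 libraries nearest to sham), Col8a1 (0.977) and Col12a1 (0.975). For Ccn2 they included Efhd2 (0.970) and Resf1 (0.967), and for Ccn1 they included Efhd2 (0.962) and Hbegf (0.953). For Spp1 the nearest was Gpnmb (0.910, and 0.870 without the 3), a glycoprotein of lipid-laden and phagocytic macrophages, followed by Ptma (0.876) and Chmp5 (0.863). For Thbs2 they were Unc93b1 (0.928), Man2b1 (0.922) and Plxdc2 (0.905). For Tnc they were Adcyap1r1 (0.976), Gpx7 (0.970) and H19 (0.965), for Thbs1 Dynll1 (0.966), Kctd11 (0.961) and Copb1 (0.958), and for Thbs4 they included Mxra7 (0.896) and Pcolce (0.894). Without the 3 libraries nearest to sham, r was lower for most of these pairs. It was 0.835 for Tnc and Gpx7, 0.838 for Thbs1 and Copb1, 0.794 for Thbs4 and Mxra7, and 0.693 for Spp1 and Chmp5. For Sparc and Col1a2 it was 0.970, and for Thbs2 and Unc93b1 0.942.

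Other genes of the same families were mixed. Of 20 listed, 17 were in the table and 13 were tested. Of the 13, 7 rose in each genotype, and 3, 5 and 4 fell in IRS1KO, IRS2KO and WT hearts. Over all genes, 32.4%, 31.3% and 28.3% rose and 31.7%, 31.1% and 26.6% fell. Fstl1, a secreted SPARC-family glycoprotein, averaged 9879 ± 2240.5, 8604 ± 2496 and 6835 ± 1386 in IRS1KO, IRS2KO and WT TAC hearts, against 1472 ± 166, 1430.6 ± 57.3 and 1194 ± 84.0 in their sham hearts, with limma log2 fold changes of 2.72, 2.53 and 2.49. Ccn4 rose 14.8-fold, 22.8-fold and 10.8-fold, and Ccn5 3.07-fold, 5.25-fold and 2.97-fold. Tenascin-X (Tnxb) and Sparcl1, relatives of Tnc and Sparc, went the other way: Tnxb fell by 1.62, 1.42 and 0.88 and Sparcl1 by 0.49, 0.52 and 0.44 on the log2 scale. The median of the 13 tested family genes was 1.03, 0.80 and 1.05 in IRS1KO, IRS2KO and WT hearts. Between genotypes, Spock2 was lower in IRS1KO than in WT sham hearts (114 ± 44.0 and 329.6 ± 78.0, limma adjusted p = 0.0146), and Smoc2 in IRS1KO than in WT TAC hearts (504 ± 111 and 770.2 ± 128, adjusted p = 0.0137).

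Receptors of the matricellular proteins mostly rose. Of 20 tested, 14, 14 and 15 rose and 2, 2 and 1 fell in IRS1KO, IRS2KO and WT hearts, with medians of 1.15, 0.86 and 0.87. Over all genes, 32.4%, 31.3% and 28.3% rose and 31.7%, 31.1% and 26.6% fell. Cd44, the hyaluronan and osteopontin receptor, averaged 834 ± 371 in WT TAC hearts and 143 ± 31.9 in WT sham hearts, 5.83-fold. Lrp1, the endocytic receptor that clears thrombospondins and CCN proteins, rose 2.51-fold, 1.89-fold and 1.83-fold in IRS1KO, IRS2KO and WT hearts. Cd36, a thrombospondin receptor that is also the fatty acid translocase of cardiomyocytes, fell to 14276 ± 4964 in IRS2KO TAC hearts, against 29212 ± 1843 in IRS2KO sham hearts. Itgb1, the beta chain shared by most of the matrix-binding integrins, averaged 14986 ± 4273 in IRS1KO TAC hearts and 10085 ± 1644 in WT TAC hearts (limma adjusted p = 0.0328), while Cd47 averaged 852 ± 51.7 and 1025 ± 128 there (adjusted p = 0.0284). In sham hearts Itga9, a Tnc and Spp1 receptor chain, was 1312 ± 121 in IRS1KO and 983 ± 112 in WT (adjusted p = 0.00291), and Itgb6 was 174 ± 32.03 and 101 ± 21.3 (adjusted p = 0.0356).

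Of 19 genes of TGF-beta signalling and of the YAP/TEAD and SRF pathways, 11, 14 and 12 rose and 1 fell in IRS1KO, IRS2KO and WT hearts. The shares over all genes were 32.4%, 31.3% and 28.3% higher and 31.7%, 31.1% and 26.6% lower. Ltbp2, a latent TGF-beta binding protein, rose 36.1-fold, 42.0-fold and 29.8-fold, and Ankrd1, a YAP target of cardiomyocytes, 3.69-fold, 4.17-fold and 4.41-fold. Tgfb2 averaged 1026 ± 558 in IRS2KO TAC hearts and 127 ± 22.3 in IRS2KO sham hearts. In sham hearts 1 gene of the 19 was called between IRS1KO and WT, beside 4.65% of all genes. This was Acta2, smooth muscle actin and an SRF target. It averaged 5603 ± 887 in IRS1KO and 1990.4 ± 366 in WT sham hearts (2.81-fold, limma adjusted p = 1.71e-08). It was also higher in IRS1KO than in WT TAC hearts, at 5274 ± 937 and 2940.3 ± 789 (adjusted p = 0.00105). Its TAC response was lower in IRS1KO than in IRS2KO hearts, by a log2 difference of -1.54 (adjusted p = 0.000422).

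Of 12 genes of the ER stress sensor ATF6 and its targets, 9 rose in each genotype, and 1, 2 and 1 fell in IRS1KO, IRS2KO and WT hearts. The shares over all genes were 32.4%, 31.3% and 28.3% higher and 31.7%, 31.1% and 26.6% lower. The chaperones Pdia4 (2.28-fold, 2.57-fold and 2.44-fold) and Manf (2.25-fold, 2.71-fold and 2.55-fold) rose in IRS1KO, IRS2KO and WT hearts. Herpud1, which takes part in ER-associated degradation, fell to 1660.2 ± 623 in WT TAC hearts, against 3888 ± 323 in WT sham hearts. Hspa5, the central ER chaperone, had log2 fold changes of 0.11, 0.18 and 0.25 and did not pass (limma adjusted p = 0.407, 0.152 and 0.0709). In IRS1KO against WT hearts 0 of the 12 passed in sham and 0 after TAC, beside 4.65% and 4.7% of all genes.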

How the data were processed

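Heart apex RNA was isolated as total RNA with mirVana and sequenced from TruSeq Stranded mRNA libraries, per the labels' protocols. The authors deposited a normalized count signal per gene and library. HISAT2 2.0.6, HTSeq 0.7.1, DESeq2 and GRCm38 are named in the submitters' processing notes without role or order; the sources used here do not give whether counting used strand. Ccn2 shares 665 exon bases, Tnc 176 and Thbs1 208 with low antisense genes (means 10.4, 3.49 and 0.0452), and Spp1 309 with a same-strand gene (mean 0.686).

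The deposited signal was a whole multiple of 1 value per library for 100% of values (tolerance 0.001), so whole reads were recovered, at 11707111 to 14609467 per library. Symbols, exon lengths and coordinates came from GENCODE vM21, which held 26904 of the 27012 identifiers.

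The test was limma 3.58.1 (R 4.3.3, trend and robust) on log2(value + 1), run over 13695 genes whose mean reached 10, in 1 model with a mean per group, 12 contrasts, two-sided, Benjamini-Hochberg adjusted over all genes within a contrast at 0.05. A log2 fold change understates the change of low genes; folds are ratios of group means, none where a mean is under 3. The scripts were tested on simulated data. Results were recomputed with a pseudocount of 0.5 or 5, without the filter, with a minimum mean of 50, with other scalings (same total per library, quantile), only the compared groups, arrayWeights, a replicate block, edgeR 4.0.16 and DESeq2 1.42.0 on recovered reads, leaving out each library, and, added after seeing the data, leaving out 3 TAC libraries. The members and gene lists were chosen with earlier results of these data known. All 10 members are named, with up to 4 genes of each list by smallest p among the called (or 2 where none was called); Tnxb, Sparcl1, Hspa5 and repeats of named genes in other genotypes were added after their values were seen. For same-numbered libraries of different groups, 38 of 85 correlations of deviations from the group mean were over 0.1. They ran from -0.603 to 0.568. Different-numbered libraries were not compared, so whether replicate numbers mark a shared litter, batch or day was not settled. Some genes that this rule names are not reported here.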

Additional observations from a re-analysis of the deposited data

Results flagged for a closer look

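In 3 of the 60 groups of 4 to 10 libraries checked over the 10 members, 1 library stood far from the others by Dixon's criterion at 95%, which chance gives in about 1 in 20 groups. Postn was 956 in IRS1KO sham replicate 2, where the other 5 libraries averaged 597. Postn was 659 in WT sham replicate 6, where the other 5 averaged 413. Ccn2 was 2818 in IRS1KO TAC replicate 5, where the other 5 averaged 6313 and the nearest was 5870.1; this library also had the lowest value of its group for 9 of the 10 members.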

How the results depend on the processing

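Every member called after TAC kept its direction in all 47 alternatives, and apart from Thbs2 its call; 10, 9 and 9 members in IRS1KO, IRS2KO and WT hearts were also called with a replicate block, which changed no member's call. Over single genes, 23 results lost and 23 gained a call among 5640 recomputed, and 0 reversed. The number of members called moved as follows. Between IRS1KO and WT sham hearts (2 members) it was 1, Ccn2, with the same total per library and with quantile normalization (Sparc adjusted p 0.0754 and 0.0619 by limma), 1 to 2 without 1 library, and 3 with library weights, which added Postn. Between IRS2KO and WT sham hearts (0) it was 1, Sparc, with only the compared groups. Between IRS1KO and WT TAC hearts (1) it was 0 with no filter, 0 with only the compared groups, 6 with library weights, and 0 to 5 without 1 library. Between IRS2KO and WT TAC hearts (0) it was 2 without the 3 TAC libraries nearest to sham. For the response difference IRS1KO minus IRS2KO (0) it was 1 with library weights and 1 without the 3 libraries. The 3 were picked for lying nearest to sham, and none was IRS1KO, so the counts without them cannot decide a genotype difference. Correlated pairs of members (35) numbered 11 without the 3 libraries, 31 to 37 without 1 library and 41 with the same total per library; by rho (29) there were 8, 15 to 33 and 36. The causes were not tested. Spp1 and Cthrc1 rest on few reads in sham, and 5 WT TAC libraries limit the genotype comparisons.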
